A study of Mus musculus with 6 samples.

Results

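The 8 genes described here encode isoforms and regulators of the PI3K-Akt pathway: the kinases Akt1 and Akt2, the PI3K catalytic subunits Pik3ca, Pik3cd and Pik3cg, the adaptor Pik3ap1, and the inositol phosphatases Inpp5d and Inpp4b. They were chosen by gene symbol from the 22623 genes listed in every count matrix, and all 8 were detected. The counts came from single-nucleus RNA sequencing of whole tumors grown under the skin from TC1 cells, a mouse lung tumor line. The hosts were MCT2 loxP/loxP mice that also carried the mCre transgene, on a C57BL/6 background. MCT2, encoded by Slc16a7, carries pyruvate and lactate across membranes. In the 3 MCT2 KO libraries the host received tamoxifen once daily for 5 days from 8 weeks of age, and in the 3 MCT2 CO libraries the host, of the same genotype, received vehicle without tamoxifen. Tumors were collected after 24 days. Only host cells could lose MCT2 in this design, since no engineered deletion is described for the injected TC1 cells. The promoter that drives Cre is not given in the sources used here, and CO mice received no tamoxifen, so effects of the drug and of MCT2 loss cannot be told apart.

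Class I PI3K phosphorylates a membrane inositol lipid to make PIP3, which recruits Akt kinases so that they can be activated. Pik3ca and Pik3cb encode the broadly expressed p110alpha and p110beta subunits, whereas p110delta (Pik3cd) and p110gamma (Pik3cg) are best known from leukocytes. Lipid phosphatases act on these lipids, with SHIP1 (Inpp5d) removing the 5-phosphate of PIP3 to leave PI(3,4)P2 and INPP4B removing the 4-phosphate from PI(3,4)P2.

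After filtering and removal of likely doublets, 17514 nuclei were analyzed, 7660 from CO and 9854 from KO tumors. Nuclei were classed by summed marker counts that included none of the 8 genes: 8256 were tumor-like (47.1%, median 5369.5 UMIs, that is, distinct transcripts counted per nucleus), 5174 macrophage-like (29.5%, median 1118 UMIs) and 462 T/NK-like (2.64%, median 942.5 UMIs). Tumor-like is a working name for nuclei rich in Mecom, Slit2, Hmga2 and 5 further genes, and the study named its large clusters mesenchymal stromal. The tissue label is lung, but the lung epithelial genes Nkx2-1, Sftpc and Scgb1a1 had no UMI in any library. Over all nuclei Sftpb had 0 to 3 UMIs per library, and the epithelial genes Epcam and Cdh1 had 0 to 8 and 26 to 98. Library totals ran from 7832625 to 16951665 UMIs. Library KO1 held the most nuclei, and KO2 held the fewest macrophage-like (252) and T/NK-like (32) nuclei. Slc16a7, the targeted gene, was not lower in the libraries labelled KO: macrophage-like nuclei had 92.6, 90.9 and 180 CPM (counts scaled to a total of 1000000 per sum) in CO1 to CO3 and 120, 148 and 161 CPM in KO1 to KO3 (edgeR log2 fold change 0.26, SE 0.31, adjusted p = 0.851). A 3′ count outside the deleted part does not test the deletion, and that part is not given in the sources used here. Of the analyzed barcodes, 47 occurred in several libraries.

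The clearest pattern was between classes. Of the 8 genes, 5 (Pik3cd, Pik3cg, Pik3ap1, Inpp5d and Inpp4b) were higher in macrophage-like than in tumor-like nuclei and 0 were lower, where 52.8% of the 11362 genes tested were called, 24.8% higher and 28% lower. The same 5 genes were higher in T/NK-like than in tumor-like nuclei, where 37.6% of genes were called, 15% higher and 22.6% lower. Between T/NK-like and macrophage-like nuclei, Inpp4b was higher in the T/NK-like class and Pik3ap1, Inpp5d and Pik3cg were lower, where 22.8% of genes were called, 8.08% higher and 14.7% lower. A gene was called at an absolute log2 fold change of at least 0.58 and a Benjamini-Hochberg adjusted p of at most 0.05 in edgeR's quasi-likelihood test, with 1 sum of counts per class and library and the library as a block. The median log2 fold change of all genes was -0.05, -0.22 and -0.12 in these 3 contrasts, and without scaling beyond library totals the T/NK-like medians were 0.02 and 0.10. Against tumor-like nuclei, 1706 genes were called higher and 2564 lower in T/NK-like nuclei, and 2205 and 1799 without that scaling; against macrophage-like nuclei the numbers were 918 and 1673, and 1244 and 1236.

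**Figure D1:**
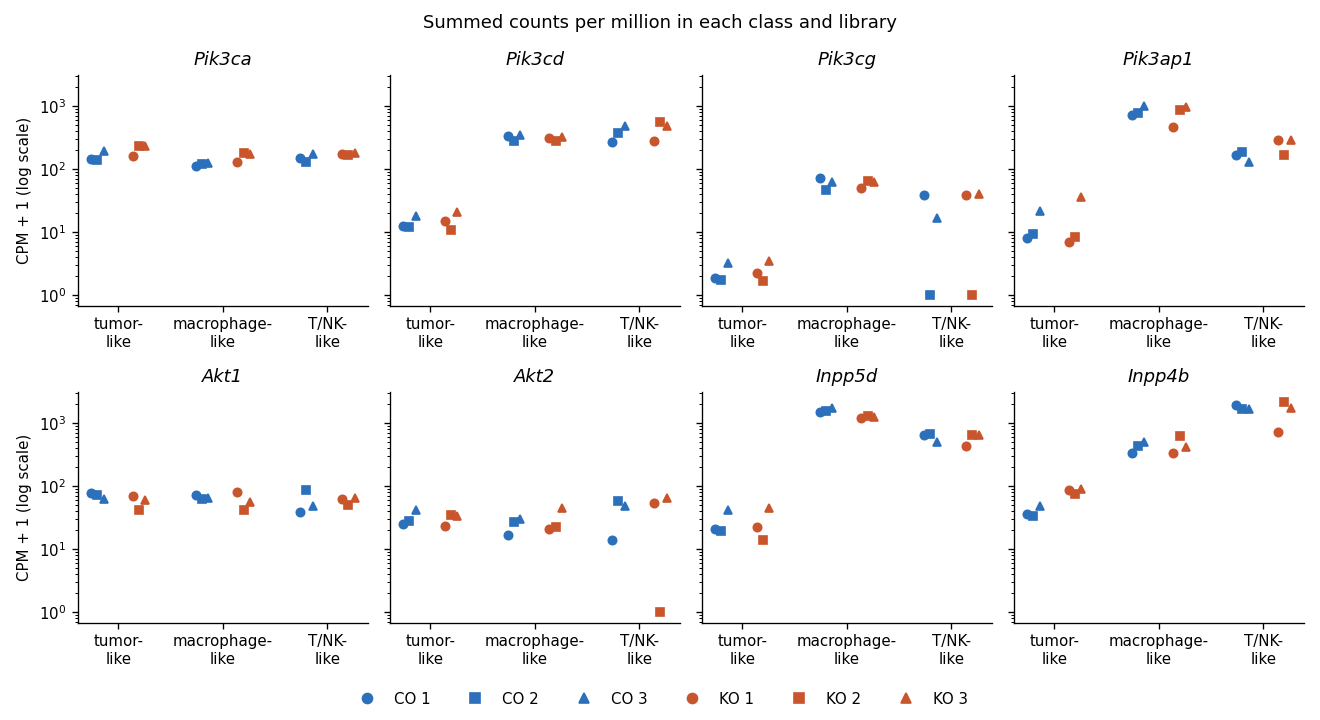
CPM plus 1 (log axis), from summed counts, of each of the 8 genes in tumor-like, macrophage-like and T/NK-like nuclei, with 1 point per library (blue CO, orange KO, symbols for replicates 1 to 3). Pik3cd, Pik3cg, Pik3ap1, Inpp5d and Inpp4b sit higher in macrophage-like than in tumor-like nuclei in all 6 libraries. Pik3ca, Akt1 and Akt2 overlap across the classes, with Akt2 in T/NK-like nuclei spread from 0 to 62.4 CPM, from 0 to 8 counts.

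Among the catalytic subunits, Pik3ca (chromosome 3, 32397671 to 32468486, plus strand of GRCm38, 21 merged exons), which encodes p110alpha, was called in none of the 3 contrasts between classes. In tumor-like nuclei it had 146, 141 and 195 CPM in CO1 to CO3 and 159, 230 and 233 CPM in KO1 to KO3. Macrophage-like nuclei had 111, 119 and 125 CPM in CO and 131, 183 and 176 CPM in KO. T/NK-like nuclei had 152, 130 and 176 CPM in CO and 175, 168 and 179 CPM in KO. All 3 classes overlapped. Within every library the macrophage-like level was below the tumor-like level, and the fold change of Pik3ca was -0.41 (SE 0.10, adjusted p = 0.000714 by edgeR), which did not reach the size limit for a call. T/NK-like against tumor-like nuclei gave -0.40 (SE 0.16, adjusted p = 0.0458), also short of the size limit.

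Pik3cd (chromosome 4, 149649168 to 149702571, minus strand), the p110delta subunit, separated tumor-like nuclei from both immune classes. Its tumor-like level was 11.4, 11.1 and 17.2 CPM in CO1 to CO3 and 13.8, 9.87 and 20.03 CPM in KO1 to KO3. The macrophage-like level was 331, 282 and 342 CPM in CO and 311, 279 and 318 CPM in KO. In T/NK-like nuclei it was 266, 375 and 480 CPM in CO and 274, 553 and 476 CPM in KO. No tumor-like sum came near either immune class, and the immune classes overlapped each other. The log2 fold change of Pik3cd was 4.48 (SE 0.13, adjusted p = 5.91e-21) for macrophage-like and 4.54 (SE 0.18, adjusted p = 1.16e-17) for T/NK-like against tumor-like nuclei by edgeR. T/NK-like against macrophage-like nuclei gave 0.06 (SE 0.15, adjusted p = 0.853), so no difference was detected between them.

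Pik3cg (chromosome 12, 32173473 to 32208659, minus strand), the p110gamma subunit that acts downstream of G protein-coupled receptors, had the lowest level of the 8 in tumor-like nuclei. Tumor-like nuclei had 0.653 to 2.44 CPM, from 8 to 19 counts per library. Macrophage-like nuclei had 70.2, 46.2 and 62.7 CPM in CO1 to CO3 and 49.1, 64.4 and 61.1 CPM in KO1 to KO3. T/NK-like nuclei had 3, 0 and 1 counts in CO and 5, 0 and 5 counts in KO, and the 2 zeros allow up to 43.2 CPM in CO2 and 72.2 CPM in KO2 (3 counts, counting error only). All macrophage-like sums lay above all tumor-like sums, by a log2 fold change of 5.43 (SE 0.24, adjusted p = 1.15e-17). The T/NK-like level of Pik3cg was called lower than the macrophage-like one (-1.36, SE 0.42, adjusted p = 0.0179, edgeR), but the call was lost without CO2 (adjusted p = 0.0611) and without CO3 (adjusted p = 0.0534). It was also lost without scaling beyond library totals (-1.14, adjusted p = 0.0570).

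Within each class, the share of class I catalytic counts that came from the leukocyte-associated subunits Pik3cd and Pik3cg followed the same order in every library. The share was 4.56, 4.40 and 6.00% in tumor-like nuclei of CO1 to CO3 and 5.13, 2.87 and 5.88% in KO1 to KO3. In macrophage-like nuclei it was 57.3, 48.2 and 57.5% for CO and 54.3, 43.2 and 49.4% for KO. In T/NK-like nuclei it was 63.2, 72.2 and 70.5% for CO and 61.2, 76.7 and 67.3% for KO, from 30 to 98 counts per library. The means were 4.81% ± 1.16, 51.7% ± 5.69 and 68.5% ± 5.79 (SD, n = 6 libraries), and the ranges of the classes did not overlap. The differences of 46.9 percentage points (macrophage-like minus tumor-like), 63.7 points (T/NK-like minus tumor-like) and 16.8 points (T/NK-like minus macrophage-like) each had a two-sided exact sign-flip permutation p of 0.03125, the smallest that 6 libraries allow, and 0.0469 after adjustment over 9 class tests. Each was in the same direction in 6 of 6 libraries. With at least 500 genes and under 5% mitochondrial counts per nucleus, the difference between T/NK-like and macrophage-like nuclei was 14.7 points and no longer passed (exact permutation p = 0.0625).

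The single isoforms differed by class as well. Pik3ca made up 57.3% of class I catalytic counts in tumor-like, 19.5% in macrophage-like and 27.1% in T/NK-like nuclei. Pik3cd made up 4.38, 43.5 and 64.7%, and Pik3cb, which is not among the 8 genes, 37.9, 28.9 and 4.37%. Per kilobase of merged exons the order of the mean levels in tumor-like nuclei was Pik3ca (20.2 CPM per kb), Pik3cb (16.5), Pik3cd (2.22) and Pik3cg (0.165), and the ranges of Pik3ca and Pik3cb overlapped. In macrophage-like nuclei the order was Pik3cd (49.6 CPM per kb), Pik3cb (28.9), Pik3ca (15.5) and Pik3cg (6.999). In T/NK-like nuclei it was Pik3cd (64.6 CPM per kb), Pik3ca (17.99), Pik3cb (3.82) and Pik3cg (2.59), and the ranges of Pik3cb and Pik3cg overlapped. Per kilobase of the whole gene the highest subunit of each class was the same, at 2.60 CPM per kb for Pik3ca in tumor-like, 5.81 for Pik3cd in macrophage-like and 7.57 for Pik3cd in T/NK-like nuclei.

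**Figure D2:**
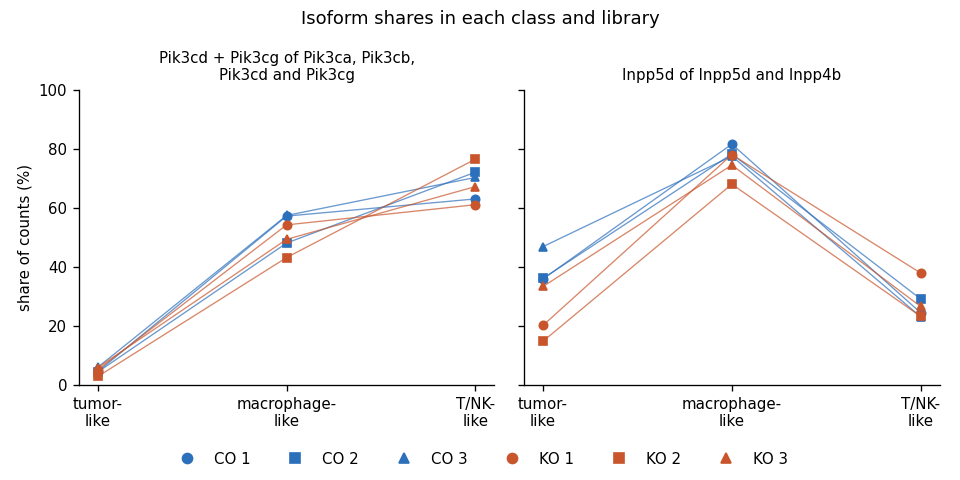
Share of counts (%) from Pik3cd and Pik3cg among 4 class I catalytic subunits (left) and from Inpp5d among Inpp5d and Inpp4b (right), in each class, with lines joining the sums of 1 library. The Pik3cd and Pik3cg share has a mean of 4.81% in tumor-like and 51.7% in macrophage-like nuclei, and the Inpp5d share peaks in macrophage-like nuclei at a mean of 76.5%.

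Pik3ap1 (chromosome 19, 41272377 to 41385102, minus strand) encodes BCAP, an adaptor that links immune receptors to PI3K. It had 732, 775 and 997 CPM in macrophage-like nuclei of CO1 to CO3 and 465, 875 and 970 CPM in KO1 to KO3. Tumor-like nuclei had 7.003, 8.31 and 21.1 CPM in CO and 5.93, 7.40 and 35.3 CPM in KO. T/NK-like nuclei had 165, 187 and 128 CPM in CO and 289, 168 and 289 CPM in KO. These classes did not overlap, with macrophage-like highest and T/NK-like in between. The log2 fold change of Pik3ap1 was 6.04 (SE 0.25, adjusted p = 4.36e-18) for macrophage-like and 3.90 (SE 0.36, adjusted p = 6.50e-10) for T/NK-like against tumor-like nuclei, and -2.13 (SE 0.29, adjusted p = 1.00e-06) for T/NK-like against macrophage-like nuclei by edgeR.

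Among the inositol phosphatases, Inpp5d (chromosome 1, 87620312 to 87720507, plus strand), encoding SHIP1, was highest in macrophage-like nuclei. Its level there was 1487, 1566 and 1708 CPM in CO1 to CO3 and 1196, 1305 and 1238 CPM in KO1 to KO3. T/NK-like nuclei had 633, 677 and 496 CPM in CO and 434, 649 and 632 CPM in KO. Tumor-like nuclei had 19.7, 18.4 and 41.3 CPM in CO and 21.4, 12.8 and 44.0 CPM in KO. No class overlapped another. The log2 fold change of Inpp5d was 5.82 (SE 0.21, adjusted p = 1.58e-19) for macrophage-like and 4.27 (SE 0.22, adjusted p = 5.67e-15) for T/NK-like against tumor-like nuclei, and -1.55 (SE 0.20, adjusted p = 5.87e-07) for T/NK-like against macrophage-like nuclei by edgeR.

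Inpp4b (chromosome 8, 81342556 to 82127914, plus strand, 785 kb), which removes the 4-phosphate from PI(3,4)P2, was highest in T/NK-like nuclei. These had 1951, 1643 and 1648 CPM in CO1 to CO3 and 708, 2141 and 1740 CPM in KO1 to KO3. Macrophage-like nuclei had 332, 431 and 491 CPM in CO and 334, 609 and 421 CPM in KO. Tumor-like nuclei had 35.0, 32.5 and 46.6 CPM in CO and 84.3, 73.8 and 87.7 CPM in KO. No class overlapped another, and KO1 was the low T/NK-like library. The log2 fold change of Inpp4b was 2.85 (SE 0.22, adjusted p = 3.36e-12) for macrophage-like and 4.50 (SE 0.24, adjusted p = 9.77e-15) for T/NK-like against tumor-like nuclei, and 1.65 (SE 0.22, adjusted p = 1.12e-06) for T/NK-like against macrophage-like nuclei by edgeR.

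Inpp5d and Inpp4b therefore took opposite shares in the immune classes. Inpp5d gave 81.8, 78.4 and 77.7% of their joint counts in macrophage-like nuclei of CO1 to CO3 and 78.2, 68.2 and 74.6% in KO1 to KO3. It gave 24.5, 29.2 and 23.1% in T/NK-like nuclei of CO and 38.0, 23.3 and 26.6% in KO. The ranges did not overlap, and the difference of -49.0 percentage points (T/NK-like minus macrophage-like) had an exact sign-flip permutation p of 0.03125, adjusted 0.0469, with the T/NK-like share lower in 6 of 6 libraries. Per kilobase of merged exons, Inpp4b exceeded Inpp5d in T/NK-like nuclei (125 against 77.2 CPM per kb). Per kilobase of the whole gene the order was the reverse (2.09 against 5.86 CPM per kb), and Inpp4b is the longer gene, so which of them was more abundant per transcript depended on the length used. In macrophage-like nuclei Inpp5d was the higher on both scales. Whether reads in introns were counted is not given in the sources used here.

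The stretches upstream of the starts of 3 of the genes that differed between classes are shown because Inpp5d and Pik3ap1 moved together across classes while Inpp4b took another order. Each is the 250 bases before an annotated start in RefSeq (GRCm38.p6), 5′ to 3′ on the strand of the gene: chr1:87620062-87620311 for Inpp5d (plus strand), chr19:41385103-41385352 for Pik3ap1 (minus strand) and chr8:81342312-81342561 for Inpp4b (plus strand). Capitals mark the letters GAGGAAGT, the core recognized by the myeloid factor PU.1, which was searched on both strands.
Inpp5d: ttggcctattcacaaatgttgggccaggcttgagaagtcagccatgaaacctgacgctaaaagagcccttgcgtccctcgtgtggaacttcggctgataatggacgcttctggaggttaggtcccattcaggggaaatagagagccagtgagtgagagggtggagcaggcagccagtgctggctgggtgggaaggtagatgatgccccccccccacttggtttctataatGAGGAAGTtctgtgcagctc
Pik3ap1: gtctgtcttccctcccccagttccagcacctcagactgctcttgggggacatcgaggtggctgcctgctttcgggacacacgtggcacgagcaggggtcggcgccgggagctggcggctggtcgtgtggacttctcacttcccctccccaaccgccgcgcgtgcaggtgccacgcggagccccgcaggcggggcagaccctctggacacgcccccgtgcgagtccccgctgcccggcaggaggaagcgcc
Inpp4b: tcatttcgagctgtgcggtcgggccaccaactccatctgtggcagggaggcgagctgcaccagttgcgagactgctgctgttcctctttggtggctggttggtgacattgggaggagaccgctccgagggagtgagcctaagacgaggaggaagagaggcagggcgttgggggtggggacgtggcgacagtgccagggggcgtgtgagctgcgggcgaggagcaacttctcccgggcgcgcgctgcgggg
The 8 letters stood 20 bases before the start in the Inpp5d window and were not in the Pik3ap1 and Inpp4b windows. They also stood, on the opposite strand, 191 bases before the start in 1 of the 2 Pik3cg windows (chr12:32208471-32208720, not printed). No other window of the 8 genes held them. Across the 32851 promoters in the table, 2.44% held them in the same length. The AP-1 letters TGAGTCA were in the Pik3ca window and in 4.46% of all promoters, and TATAAA was in none of the windows of the 8 genes and in 12.4% of all promoters. Such matches describe letters in the windows and no binding was measured.

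The kinases Akt1 and Akt2 differed little between classes. Akt1 (chromosome 12, 112653821 to 112674884, minus strand) had 76.2, 71.3 and 61.1 CPM in tumor-like nuclei of CO1 to CO3 and 67.4, 40.2 and 58.0 CPM in KO1 to KO3. Macrophage-like nuclei had 71.2, 61.6 and 64.1 CPM in CO and 78.7, 40.3 and 55.1 CPM in KO. T/NK-like nuclei had 38.0 to 86.5 CPM, from 2 to 8 counts per library. KO2 was the low library in both large classes, and all 3 classes overlapped. The fold changes of Akt1 were -0.05 (SE 0.11, adjusted p = 0.693) for macrophage-like and -0.38 (SE 0.23, adjusted p = 0.240) for T/NK-like against tumor-like nuclei by edgeR. Akt2 (chromosome 7, 27591552 to 27640826, plus strand), known for its role in insulin-stimulated glucose uptake, had 22.3 to 39.9 CPM in tumor-like nuclei, 15.6 to 43.7 CPM in macrophage-like nuclei and 0 to 62.4 CPM, from 0 to 8 counts, in T/NK-like nuclei. These ranges overlapped too, and the fold changes of Akt2 were -0.19 (SE 0.17, adjusted p = 0.325) and 0.33 (SE 0.36, adjusted p = 0.503).

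Free RNA released during nuclei isolation can place immune transcripts in tumor-like droplets. The tumor-like level of Inpp5d was 1.85% of its macrophage-like level, that of Pik3ap1 1.77%, that of Pik3cg 2.35% and that of Pik3cd 4.48%. For 12 other leukocyte genes not used for classing the same percentage was 1.86 to 9.41%, with a median of 2.70%. Inpp4b was at 13.8% (7.54 to 25.3% over libraries), above all 12, and Akt1, Akt2 and Pik3ca were at 101, 115 and 131%. The tumor-like percentages of Inpp5d, Pik3ap1, Pik3cg and Pik3cd thus lay within or just below the range of these 12 genes. Free RNA itself was not measured, and its part in the tumor-like values was not tested.

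**Figure D3:**
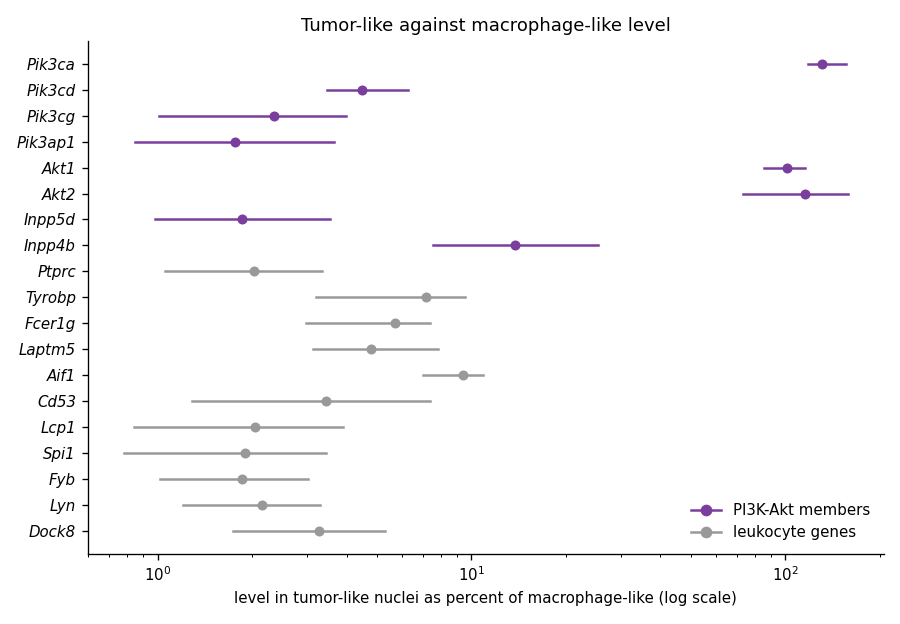
Level in tumor-like nuclei as a percentage of the macrophage-like level (log axis), with the ratio of the means (points) and the lowest and highest library (lines), for the 8 genes (purple) and 11 of the 12 other leukocyte genes (grey). Inpp5d, Pik3ap1, Pik3cg and Pik3cd fall at 1.77 to 4.48%, beside the leukocyte genes at 1.86 to 9.41%, Inpp4b is at 13.8% and Pik3ca, Akt1 and Akt2 are at 101 to 131%.

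In T/NK-like nuclei, Pik3ap1 stood at 25.5% and Inpp5d at 41.4% of the macrophage-like level. For the 12 leukocyte genes not used for classing the same percentage was 5.66 to 140.5%, with a median of 44.3%. Pik3ap1 and Inpp5d lay within that range, and the myeloid genes Spi1 and Lyn stood near its low end, at 5.66 and 8.999%. Macrophage marker sums in T/NK-like nuclei were 634 to 811 CPM in CO and 337 to 788 CPM in KO, against 5791 to 8834 CPM over all libraries in macrophage-like nuclei. Tumor marker sums there were 634 to 1776 CPM in CO and 929 to 4416 CPM in KO. Their part in the T/NK-like values was not tested.

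Depth differed between classes, so each nucleus was also thinned to 500 UMIs. The median share of nuclei with an Inpp5d UMI over the 6 libraries was then 46.9% in macrophage-like, 21.9% in T/NK-like and 1.18% in tumor-like nuclei (71.6, 40.3 and 8.28% before thinning). For Pik3ap1 it was 29.9, 10.99 and 0.454% (52.7, 20.8 and 4.88% before thinning). For Pik3cd it was 13.3, 18.7 and 0.585% (29.6, 30.5 and 7.72% before thinning). These orders followed the summed levels. Inpp4b was found in 16.9% of macrophage-like, 43.5% of T/NK-like and 2.37% of tumor-like nuclei (34.5, 63.8 and 21.5% before thinning). Pik3ca had 6.07, 6.91 and 8.24% after thinning, Akt1 3.46, 3.23 and 3.04%, and Akt2 1.31, 2.27 and 1.46%. These lay closer together than before thinning, when the deeper tumor-like nuclei were far ahead (56.3% for Pik3ca against 14.2% in macrophage-like nuclei). For Pik3ca the thinned share was still lower in macrophage-like than in tumor-like nuclei in every library. For Pik3cg the thinned median was 2.30% in macrophage-like nuclei and 0% in both other classes.

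The effect of MCT2 status was asked next, by comparing the libraries labelled KO with those labelled CO in each class. None of the 8 genes was called in tumor-like or macrophage-like nuclei, where 0% of 12875 and of 9853 genes were called by edgeR, and none of the 5 testable in T/NK-like nuclei, where 0% of 1956 genes were. At an unadjusted p below 0.05 there were 862, 574 and 102 genes, and DESeq2 called 38, 6 and 0. Over all nuclei 0% of 13665 genes were called, with 667 at an unadjusted p below 0.05 and 13 by DESeq2. The median log2 fold change of the 8 genes was 0.23 in tumor-like nuclei (all genes -0.02) and -0.04 in macrophage-like nuclei (all genes 0.00). Akt1, Akt2 and Pik3cg had too few counts for the T/NK-like test. Without library KO1, 2880 genes were called in tumor-like, 1819 in macrophage-like and 81 in T/NK-like nuclei.

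Inpp4b in tumor-like nuclei showed the greatest separation among the 8. Its 3 KO values given above, 73.8 to 87.7 CPM, lay above its 3 CO values, 32.5 to 46.6 CPM, without overlap, where 13.1% of tested genes had groups that did not overlap. The CO libraries averaged 38.0 ± 7.53 CPM and the KO libraries 81.9 ± 7.26 CPM (SD, n = 3 per group). The log2 fold change of Inpp4b was 1.18 (SE 0.17, unadjusted p = 0.000204 and adjusted p = 0.588 by edgeR), so it did not pass the test, whereas DESeq2 called it (1.21, adjusted p = 3.84e-05). Without KO1, edgeR called it too (1.20, adjusted p = 0.0211), and with any other library left out the change was 1.09 to 1.33 with an adjusted p of 0.498 to 0.988. After thinning to 500 UMIs, 1.16, 1.26 and 1.56% of tumor-like nuclei of CO1 to CO3 held an Inpp4b UMI, and 3.17, 3.76 and 5.29% of those of KO1 to KO3 (16.4, 15.3 and 15.6% and 26.6, 28.4 and 31.3% before thinning). The groups did not overlap on this scale either.

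Other values also differed between the libraries, though the long-gene share and the mitochondrial share given below overlapped between the groups. Long genes had higher medians in the libraries labelled KO: the median change in tumor-like nuclei was -0.15 on the log2 scale over 8863 genes shorter than 50 kb and 0.29 over 206 genes of 500 kb or longer, of which 5, Inpp4b included, changed at least as much as Inpp4b. The 229 other genes of that length took 3.88, 4.19 and 5.34% of tumor-like counts in CO1 to CO3 and 4.15, 6.89 and 6.12% in KO1 to KO3. The median mitochondrial share of tumor-like nuclei was 9.74, 8.60 and 4.55% for CO1 to CO3 and 9.08, 5.04 and 2.88% for KO1 to KO3. Macrophage marker sums in tumor-like nuclei were 406 to 413 CPM in CO and 413 to 554 CPM in KO. The part of gene length, mitochondrial share and these markers in the Inpp4b difference was not tested further.

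In macrophage-like nuclei Inpp4b differed little between the groups (0.13, SE 0.29, adjusted p = 0.912 by edgeR), and the difference between the classes was tested as an interaction. It was -1.19 for Inpp4b (macrophage-like minus tumor-like change, SE 0.21, unadjusted p = 4.94e-05, adjusted p = 0.256). Over all genes 0% of 12590 were called in this test, 950 had an unadjusted p below 0.05, and DESeq2 called 4. In T/NK-like nuclei Inpp4b gave -0.24 (SE 0.42, adjusted p = 0.944), and its groups overlapped.

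Pik3ca was higher in the libraries labelled KO in both large classes, but by less than the test required. The macrophage-like values of 111 to 125 CPM in CO and 131 to 183 CPM in KO did not overlap, where 11.9% of tested genes did not, and the log2 fold change of Pik3ca was 0.47 (SE 0.22, adjusted p = 0.814). In tumor-like nuclei the groups overlapped (0.45, SE 0.23, adjusted p = 0.588). Without KO1, Pik3ca was called by edgeR in both classes, at 0.64 (adjusted p = 0.0337) in tumor-like and 0.63 (adjusted p = 0.0233) in macrophage-like nuclei. Inpp5d in macrophage-like nuclei ran the other way, with 1487 to 1708 CPM in CO and 1196 to 1305 CPM in KO, which did not overlap either (-0.33, SE 0.23, adjusted p = 0.814).

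The other members were spread around 0 between the groups. In tumor-like nuclei Akt1 was at -0.27 (SE 0.20), Akt2 at 0.05 (SE 0.27), Pik3cd at 0.21 (SE 0.30), Pik3cg at 0.26 (SE 0.62), Pik3ap1 at 0.49 (SE 0.74) and Inpp5d at 0.05 (SE 0.48). Pik3ap1, Inpp5d and Pik3cg were highest in CO3 and KO3 in this class, so the spread within each group was larger than the difference between them. In macrophage-like nuclei Akt1 was at -0.11 (SE 0.25), Akt2 at 0.35 (SE 0.40), Pik3cd at -0.05 (SE 0.20), Pik3cg at -0.03 (SE 0.25) and Pik3ap1 at -0.10 (SE 0.32). In T/NK-like nuclei Pik3ap1 was at 0.70 (SE 0.36), Pik3ca at 0.21 (SE 0.36), Pik3cd at 0.18 (SE 0.35) and Inpp5d at -0.10 (SE 0.32). None passed the edgeR test in any class.

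**Figure D4:**
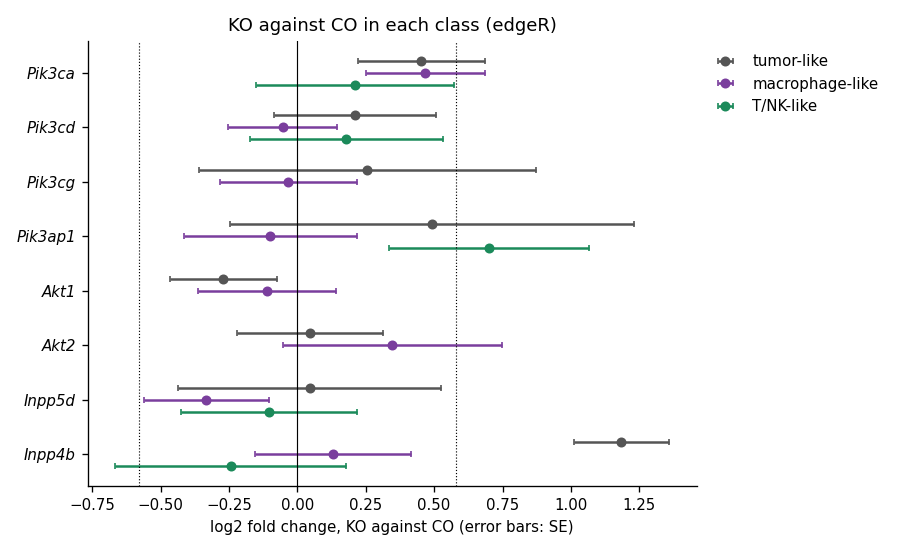
Log2 fold change between libraries labelled KO and CO (edgeR, error bars 1 SE) of the 8 genes in each class, with dotted lines at the size limit of 0.58. Inpp4b in tumor-like nuclei (1.18) lies farthest from 0 and was not called at an adjusted p of 0.588, and Akt1, Akt2 and Pik3cg have no T/NK-like point because they were not tested there.

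For the isoform shares, 3 against 3 libraries cannot reach a p of 0.05. In tumor-like nuclei the Inpp5d share of Inpp5d and Inpp4b counts was 36.0, 36.2 and 47.0% in CO1 to CO3 and 20.2, 14.8 and 33.4% in KO1 to KO3. The groups did not overlap, and the exact two-sided permutation p was 0.1, the smallest that 3 against 3 libraries allow (adjusted 0.6 over 9 group tests). The Pik3cd and Pik3cg share differed by -0.36 percentage points in tumor-like (exact permutation p = 0.8), -5.34 points in macrophage-like (p = 0.3) and -0.21 points in T/NK-like nuclei (p = 1).

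The rest of the pathway was read from 73 listed genes, of which 67 were tested between classes. In macrophage-like against tumor-like nuclei 28 were higher and 15 lower, where 24.8% of all genes tested were called higher and 28% lower. The adaptors and immune inputs carried 14 of the 28 higher and 2 of the 15 lower calls, with 17 tested. Those higher included the kinases Btk (4.93) and Syk (3.60), the adaptor Blnk (6.06), the exchange factors Vav1 (5.89) and Dock2 (5.62) and the phospholipase Plcg2 (4.57), all as log2 fold changes. Of the regulatory subunits 3 of 7 were higher and 2 lower, with Pik3r6, a partner of p110gamma, at 5.66. Of the lipid phosphatases 4 of 10 were higher and 2 lower, with Synj1 at 2.83. Kinases and regulators of Akt had 1 higher and 3 lower of 11, and targets 3 higher and 4 lower of 17, with the kinase Sgk3 at 2.96.

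In T/NK-like against tumor-like nuclei 14 of the 67 were higher and 20 lower, where 15% of all genes tested were called higher and 22.6% lower. Of these calls, adaptors and immune inputs gave 8 higher and 5 lower, with 17 tested. The exchange factor Dock2 (6.39), Pik3r6 (6.11), Vav1 (4.41) and Pik3r5 (2.86) were higher, and the adaptor Gab1 (-3.34), the ubiquitin ligase Mdm2 (-1.64) and the transcription factor Foxo3 (-1.48) were lower. Against macrophage-like nuclei 4 were higher and 23 lower, where 8.08% of all genes tested were called higher and 14.7% lower, with the transcription factor Foxo1 (1.61) higher and Blnk (-4.28), Gab2 (-3.63), Syk (-3.18) and Pik3cb (-2.85) lower. Adaptors and immune inputs gave 2 of the higher and 12 of the lower calls. Between the libraries labelled KO and CO, 0 of 68 listed genes were called by edgeR in tumor-like, 0 of 60 in macrophage-like and 0 of 24 in T/NK-like nuclei, as for all genes.

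**Figure D5:**
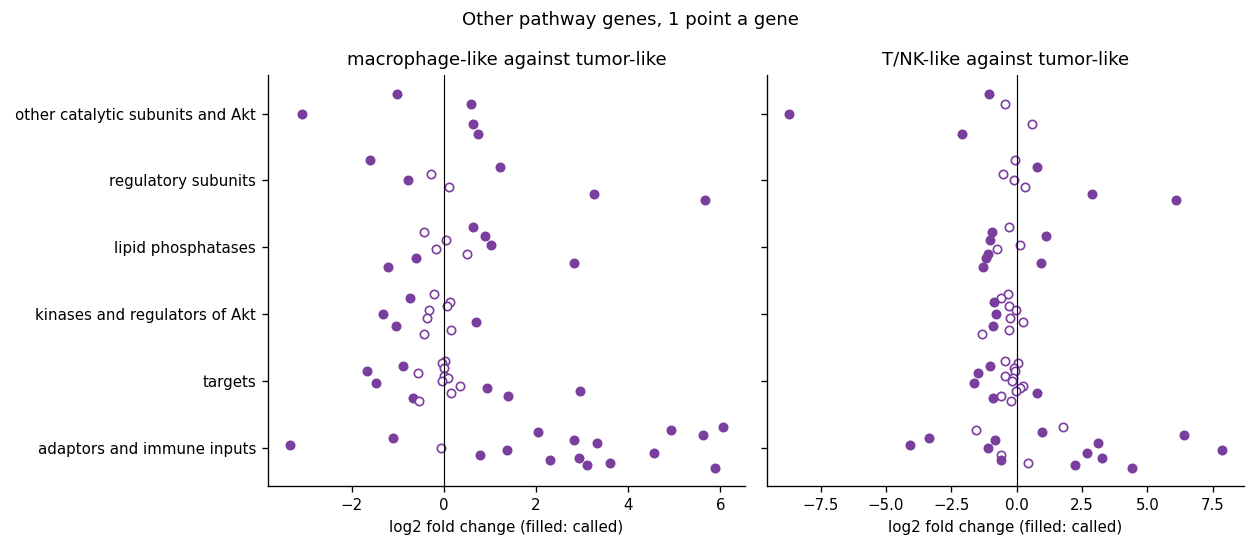
Log2 fold change of the other pathway genes, 1 point per gene (filled where called by edgeR), by list, for macrophage-like (left) and T/NK-like (right) against tumor-like nuclei. Adaptors and immune inputs lie mostly to the right of 0. Of their 17 tested genes, 14 were called higher and 2 lower in macrophage-like nuclei, and 8 higher and 5 lower in T/NK-like nuclei. Over all genes tested, 24.8% were called higher and 28% lower in macrophage-like nuclei, and 15% and 22.6% in T/NK-like nuclei.

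The genes whose level followed each member most closely over the 18 sums of class and library were found by Pearson r of log2(CPM + 1) among 8171 genes, as a description, since sums of 1 library share its depth and handling. Inpp5d was followed by Fyb (0.997), Myo1f (0.996) and Ptpn6 (0.989), and Pik3ap1 by Aoah (0.992), Atp8a1 (0.988) and Lrmda (0.986). Pik3cd was followed by Sorl1 (0.996), Dock10 (0.993) and Dock2 (0.991), Pik3cg by Casp1 (0.979), Trim30d (0.944) and Lpcat3 (0.925), and Inpp4b by Gramd1b (0.987), Prkch (0.979) and Pitpnc1 (0.976). The closest genes had an r below 0.9 for Akt1, with Tm2d1 (0.898), Dnajc8 (0.862) and Cks2 (0.848), and for Pik3ca, with Kmt2e (0.875), Spata5 (0.865) and Ankrd17 (0.860). Akt2 was followed by Ercc6 (0.960), Zbtb40 (0.949) and Slc4a2 (0.943). T/NK-like sums of Akt2 held 0 to 8 counts, with 0 in KO2, and those of Pik3cg 0 to 5, with 0 in CO2 and KO2. How far the r values of Akt2 and Pik3cg rest on these low sums was not tested. Among the members themselves, r was 0.978 between Inpp5d and Pik3ap1, 0.956 between Inpp5d and Pik3cd and 0.921 between Inpp4b and Pik3cd, and -0.56 between Akt1 and Pik3ca.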

How the data were processed

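The deposited values were raw UMI counts per gene and barcode, made by the authors from 3′ single-nucleus libraries (GRCm38; the submitters' processing notes name Cell Ranger 3.0.2, the matrix header 3.1.0, and Seurat 5.2.1). The methods name a correction for ambient RNA, but the matrices held whole numbers. Nuclei with 100 to 7500 genes and under 20% mitochondrial counts were kept, and 500 with the highest Scrublet scores (scanpy 1.11.5) were removed, since the automatic threshold marked 11. Classes required marker UMIs per 10000 of at least 80 (tumor-like, and 10 UMIs) or 20 (others, and 3 UMIs); nuclei with markers of several classes were set aside. Counts were summed per class and library and tested over all genes with edgeR 4.0.16 (TMM, low-count filter), with DESeq2 1.42.0, other filters and left-out libraries as alternatives. Shares were tested with exact permutation (scipy 1.17.1); 1 of the 3 shares in the adjustment, and some genes of the lists, are not reported here. The edgeR fits were tested on simulated data with a smaller spread between libraries than the measured one. The measured biological coefficient of variation was 25.5 to 30.3%, so that test does not show how the fits perform at this spread. The study calls the 3 libraries of each group biological replicates, so p-values measure the spread between them. Named genes were the 8 members, listed pathway genes that passed the test (at most 12 a comparison by adjusted p) and the 3 genes closest to each member. Members and lists were chosen with earlier results of these data known.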

Additional observations from a re-analysis of the deposited data

Results flagged for a closer look

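The change of Inpp4b from libraries labelled CO to those labelled KO was smaller in macrophage-like than in tumor-like nuclei by a test of the difference itself, at -1.19 on the log2 scale (SE 0.21, edgeR unadjusted p = 4.94e-05). The adjusted p over all genes was 0.256, so the difference did not pass the correction. The change was higher in KO in tumor-like nuclei, where all 3 libraries labelled KO exceeded all 3 labelled CO, and the macrophage-like values overlapped. With any single library left out the difference was -0.79 to -1.31, the smallest without KO1 (adjusted p = 0.0711). Groups of 3 libraries were not examined for outlying samples.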

How the results depend on the processing

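Of the results for the 8 genes under all alternatives, 981 kept their side of the threshold, 6 gained a call and 3 lost one, and no called value changed sign. Of the 61 results, called ones included, 27 changed sign under some alternative, all of them uncalled. Between libraries labelled KO and CO, DESeq2 called 13 genes over all nuclei, 38 in tumor-like and 6 in macrophage-like nuclei and 4 in the interaction, where edgeR called 0. Without the low-count filter edgeR called 47 genes in T/NK-like nuclei and 107 in the interaction, and Inpp4b was among the latter (-1.20, adjusted p = 8.53e-06). The interaction gave 1 gene with the marker count minimum doubled, with the marker density limits halved (Inpp4b, -1.39, adjusted p = 0.0251) or raised 1.5 times (both chosen after seeing the data), and without removal by doublet score. With each library left out in turn, the calls ranged from 0 to 2880 in tumor-like, 0 to 1819 in macrophage-like, 0 to 81 in T/NK-like nuclei and 0 to 202 in the interaction. The highest of each came without KO1, and without KO2 there was 1 call in T/NK-like nuclei and without KO3 there were 3 in the interaction. Per kilobase of the gene, the difference between KO and CO of the Inpp5d share in macrophage-like nuclei was -1.17 percentage points, against -5.62 points from counts. With at least 500 genes and under 5% mitochondrial counts, the Pik3cd and Pik3cg share differed between T/NK-like and macrophage-like nuclei by 14.7 points (exact permutation p = 0.0625). The cause of these shifts was not tested. Pairing by replicate number had no basis in the labels beyond the number and the alternating order of CO and KO samples. The correlation of same-numbered libraries was 0.47, -0.26 and 0.39 over all nuclei, and that of differently numbered ones ran from -0.52 to 0.32. The median mitochondrial share of all nuclei was 6.76, 3.98 and 1.33% in CO1 to CO3 and 6.23, 3.80 and 0.89% in KO1 to KO3. Whether same-numbered libraries shared handling was not tested. With the replicate block edgeR called 0 genes in all 4 comparisons of KO with CO (Inpp4b in tumor-like nuclei 1.20, adjusted p = 0.392). T/NK-like sums held 41576 to 131268 UMIs, which limits Akt1, Akt2 and Pik3cg there.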

Other observations

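The nuclei outside the 3 classes also held these genes. The 501 nuclei with markers of several classes had a median over libraries of 705 CPM of Inpp5d, 384 CPM of Pik3ap1, 414 CPM of Inpp4b and 226 CPM of Pik3cd. The 2784 nuclei with too few markers had 198 CPM of Inpp5d (53.4 to 473 over libraries), 121 CPM of Pik3ap1, 72.6 CPM of Inpp4b and 52.4 CPM of Pik3cd. The 337 nuclei of other classes, such as endothelial-like and muscle-like nuclei, had 67.4 CPM of Inpp5d, 34.9 CPM of Pik3ap1, 80.9 CPM of Inpp4b and 26.2 CPM of Pik3cd. Pik3ca was at 184, 170 and 203 CPM in these 3 sets and Akt1 at 74.8, 103 and 65.8 CPM.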
